A study of Homo sapiens with 4 samples.

Results

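Box H/ACA small nucleolar RNAs (gene symbols starting with SNORA) and small Cajal body RNAs (SCARNA) were followed in Huh7 cells, a line from a human hepatocellular carcinoma, transfected with pcFLAG-hSTYK1 or with pcFLAG alone. The members were all probe sets with exactly 1 platform gene symbol starting with either prefix, and a gene with several was represented by the brightest of them, averaged over the 4 arrays. This gave 81 genes, 61 SNORA and 20 SCARNA, of 22399 genes with 1 symbol. There were 2 arrays of cells that received human STYK1 in pcFLAG (STYK1 arrays) and 2 of cells that received pcFLAG (control arrays); the labels name no other agent and do not give the time after transfection or say whether the replicates came from separate cultures. Both groups come from a single cell line, and a p-value here reflects the scatter among these arrays alone, possibly only technical scatter.

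H/ACA RNAs pair with a target RNA and direct the pseudouridine synthase dyskerin (DKC1) to convert a chosen uridine into pseudouridine; most SNORA RNAs act on ribosomal RNA in the nucleolus. Small Cajal body RNAs do the same for the spliceosomal small nuclear RNAs, and some of them carry a box C/D domain that guides ribose methylation in place of, or next to, the H/ACA domain. Most members are cut out of introns of host genes, many of which encode ribosomal proteins or are non-coding SNHG genes.

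Whole-series values set the frame. STYK1, the transfected gene, read 0.26 and 0.61 with pcFLAG and 7.40 and 7.86 with pcFLAG-hSTYK1 on the log2 signal scale. It was at least 118-fold brighter with pcFLAG-hSTYK1 (limma, adjusted p = 0.0373), a bound because both controls lay under the floor. The call did not hold under every fit: blocking on replicate number gave an adjusted p of 0.0637, leaving out control replicate 1 or 2 gave adjusted p-values of 0.558 and 0.347, and leaving out STYK1 replicate 1 or 2 gave 0.427 and 0.724. The floor, under which a signal counts as background, is the level that 95% of 433 probe sets for olfactory receptors do not exceed on an array, and it lay between 0.731 and 0.779. All 8 hepatocyte markers were above it, with a median of 9.55, while the medians of immune, endothelial, fibroblast and other epithelial markers lay under it. Among these, CD14 (mean 2.07) and COL1A1 (0.82) were above it. Pearson correlations between arrays were 0.985 to 0.987, and the number of arrays limits the precision. In bulk RNA, fewer cells with a transcript and less of it per cell cannot be told apart.

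Of the 81 members, 53 had a mean over the 4 arrays above the floor, 41 SNORA and 12 SCARNA, and 45 were above it on every array. The other 28 had means of 0.34 to 0.74, and 18 were at or under the floor on every array. RefSeq lists 80 members, between 122 and 421 nucleotides long with a median of 135. Of the 10 members of 200 nucleotides or more 8 were above the floor, and of the 70 shorter ones 44. A signal also depends on the probes, so levels of different members are not compared here. Members of the SNORA70 and SNORA11 families and SCARNA9L have near relatives elsewhere in the genome whose RNA their probes may share. Sharing of probes was not checked for other members with a common number, such as the SNORA71 and SNORA80 genes.

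Host genes were read from RefSeq as the shortest gene whose span contains the member; the table holds no strand for the members, so a host on the other strand is possible. A host was found for 78 members, in 72 genes, with 6 genes holding a pair each. Many genes of the translation machinery start transcription at a C that runs on into further C and T bases, a 5′ terminal oligopyrimidine start. A C within 2 bases of the annotated start followed by at least 4 bases that are each C or T, on the gene's strand, was present in 13 of the 57 hosts with a RefSeq promoter entry (22.8%), and in 2874 of 27305 promoters of all genes (10.5%). This is a match of letters and not a mapped start. The 60 bases around the start are shown for hosts of 4 members whose values are described below, from RefSeq, build GRCh38.p14, with the C and T run in capitals and 30 bases before the start. NCAPD2 holds SCARNA10, IPO7 holds SNORA23 and CSKMT holds SNORA57. SNHG8, the host of SNORA24, has no such run that begins within 2 bases of the start. These 4 are not a sample of the hosts, most of which lack the run.
NCAPD2, chr12:6494072-6494131, plus strand: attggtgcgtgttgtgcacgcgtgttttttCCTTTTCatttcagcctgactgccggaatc
IPO7, chr11:9384622-9384681, plus strand: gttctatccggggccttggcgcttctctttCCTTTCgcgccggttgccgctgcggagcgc
CSKMT, chr11:62665282-62665341, plus strand: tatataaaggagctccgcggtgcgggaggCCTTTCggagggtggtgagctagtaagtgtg
SNHG8, chr4:118278732-118278791, plus strand: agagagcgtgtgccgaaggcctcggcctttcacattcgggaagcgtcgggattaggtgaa

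No member passed the test between STYK1 and control. limma called 0 members higher and 0 lower (adjusted p under 0.05). Among all probe sets 0.00187% were called higher and 0% lower, and 0.00446% of genes with 1 symbol were called, all of them higher. The members' adjusted p-values were 0.979 to 1. At an unadjusted p under 0.05 there were 5 of 81 members, 2 higher and 3 lower, against 4.64% of all probe sets (2.73% higher, 1.91% lower) and 3.71% of genes with 1 symbol (1.79% higher, 1.93% lower). The groups did not overlap for 23 members, 10 higher and 13 lower, against 32.8% of all probe sets (17.4% higher, 15.4% lower) and of genes with 1 symbol (16.7% higher, 16.2% lower). The members' shares lie near these. The median difference over the members, STYK1 mean minus control mean, was −0.07 on the log2 scale, with 52 differences below 0 and 29 above, beside a median of 0.002 over all genes with 1 symbol. It was −0.08 for the SNORA and −0.07 for the SCARNA genes. Without control replicate 1 the median over the members was 0.04, so its sign rests on that array. With all 4 arrays no difference reached 2-fold: they ran from −0.67 for SCARNA5 to 0.55 for SNORA80E. Both ends moved when 1 array was left out. SCARNA5 was at −0.048 without STYK1 replicate 1, −0.29 without control replicate 1, −1.06 without control replicate 2 and −1.30 without STYK1 replicate 2, the last 2 past 2-fold. SNORA80E was at 0.24 without control replicate 2 and 0.85 without control replicate 1.

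**Figure D1:**
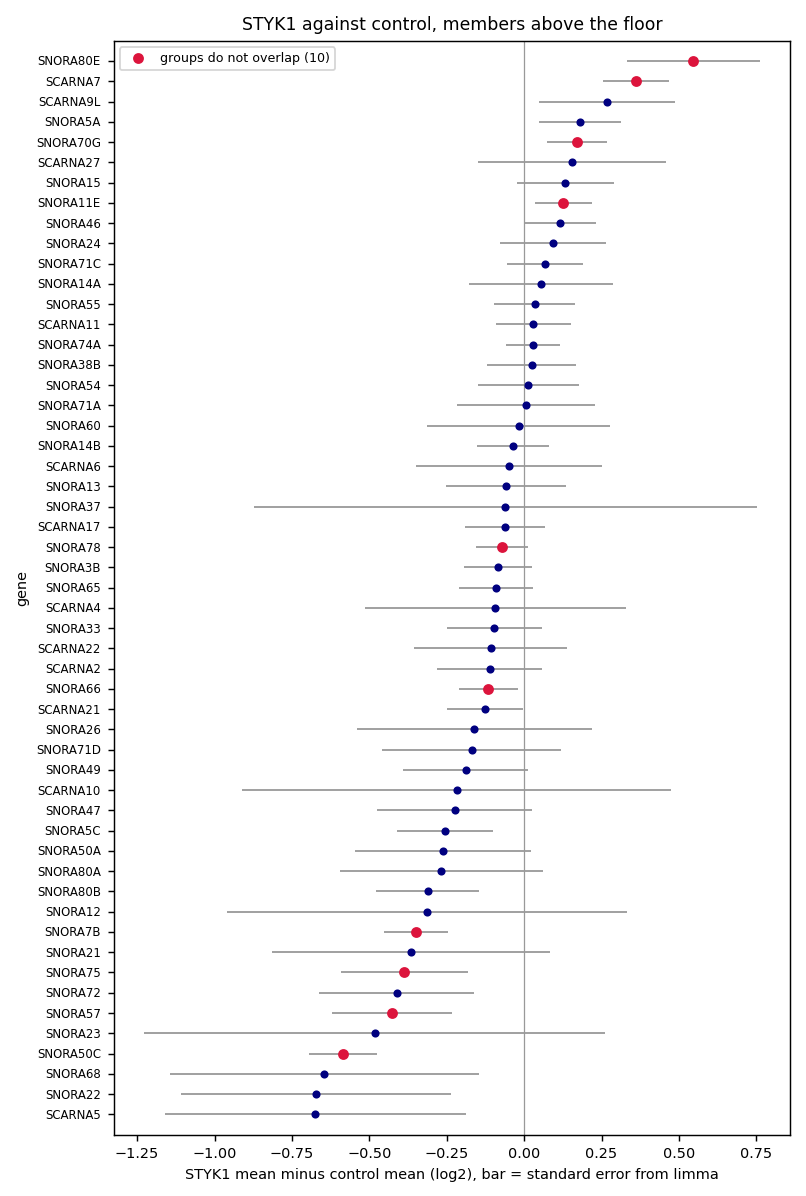
Each point is the log2 difference between the mean of the 2 STYK1 arrays and the mean of the 2 control arrays for 1 of the 53 members above the floor, and each bar is the standard error from limma. Red points mark the 10 members whose groups did not overlap; the longest bars belong to SNORA37, SNORA23, SCARNA10 and SNORA12.

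Among the members above the floor, the groups did not overlap for 10, 6 lower and 4 higher, where the background share is 33% of all genes above the floor (17.1% higher, 15.9% lower). The smallest p belonged to SNORA50C, an H/ACA RNA for which the table gave no containing gene. It read 1.77 and 1.55 with pcFLAG and 1.08 and 1.07 with pcFLAG-hSTYK1. Both STYK1 values lay below both controls, with group means of 1.08 ± 0.0051 and 1.66 ± 0.15 (SD, n = 2). The difference was −0.59 (standard error 0.11; limma, adjusted p = 0.979).

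SNORA7B, which lies in the ribosomal protein pseudogene RPL32P3, read 1.87 and 2.00 with pcFLAG and 1.65 and 1.52 with pcFLAG-hSTYK1, a difference of −0.35 (standard error 0.10; limma, adjusted p = 0.979). Its host RPL32P3 read 0.98 and 0.92 with pcFLAG and 0.59 and 0.69 with pcFLAG-hSTYK1, the latter under the floor. Member and host were both lower on the STYK1 arrays, and neither passed. The mean of RPL32P3 cleared the floor only through the controls, where it was higher, so its direction adds no support. SNORA57, in the methyltransferase gene CSKMT, read 6.91 and 6.42 with pcFLAG and 6.13 and 6.35 with pcFLAG-hSTYK1, and the lower control lay only just above the higher STYK1 array. Without control replicate 1 the difference of SNORA57 was −0.18, beside −0.43 with all arrays. CSKMT differed by 0.26, in the other direction, with a standard error of 0.21, whereas LBHD1, the longer gene that also contains SNORA57, differed by −0.33. SNORA75, also called U23 and carried by the nucleolin gene NCL, read 3.98 and 3.46 with pcFLAG and 3.22 and 3.46 with pcFLAG-hSTYK1; control replicate 2 lay above STYK1 replicate 2 by less than the rounding shown. Without control replicate 1 the difference of SNORA75 was −0.13, beside −0.39 with all arrays. NCL differed by −0.07. SNORA78 in SNHG9 read 0.82 and 0.80 in the controls and was under the floor with pcFLAG-hSTYK1 in both replicates. Its control mean was 1.03-fold over the floor of the STYK1 arrays. This is no lower limit on its difference of −0.07 (limma, adjusted p = 0.986), and it passed the floor only through its controls.

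SCARNA7, also called U90, guides ribose methylation of the U1 small nuclear RNA and lies in the importin gene KPNA4. Its signal was 4.27 and 4.13 with pcFLAG and 4.49 and 4.63 with pcFLAG-hSTYK1. Both STYK1 values were above both controls, with means of 4.20 ± 0.11 and 4.56 ± 0.099 (SD, n = 2). The difference was 0.36 (standard error 0.11; limma, adjusted p = 0.979). KPNA4 differed by 0.11. SNORA80E, earlier called SNORA42, lies in KHDC4 and read 1.26 and 0.65 in the controls, the latter under the floor, and 1.47 and 1.52 in the STYK1 arrays. Its difference of 0.55 was the highest of all members and had a standard error of 0.21. SCARNA4, the other member in KHDC4, guides pseudouridines of the U2 small nuclear RNA. It read 1.55 and 0.49 with pcFLAG and 1.28 and 0.58 with pcFLAG-hSTYK1, the second of each under the floor. The groups overlapped for SCARNA4. Both neighbours were higher in control replicate 1 than in control replicate 2. SCARNA4 was also higher in STYK1 replicate 1, while the STYK1 arrays of SNORA80E read nearly alike. SNORA70G, a copy in RAP1B, differed by 0.17 and SNORA11E by 0.13. SNORA16B was above the floor only on the STYK1 arrays, and its mean over the 4 arrays lay under it. Its STYK1 mean was 1.09-fold over the floor of the control arrays. This is no lower limit on its difference of 0.39 (standard error 0.18; limma, adjusted p = 0.979). The other 2 members at an unadjusted p under 0.05, SCARNA15 and SNORA77, lay under the floor on all 4 arrays, so no fold is given for them.

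**Figure D2:**
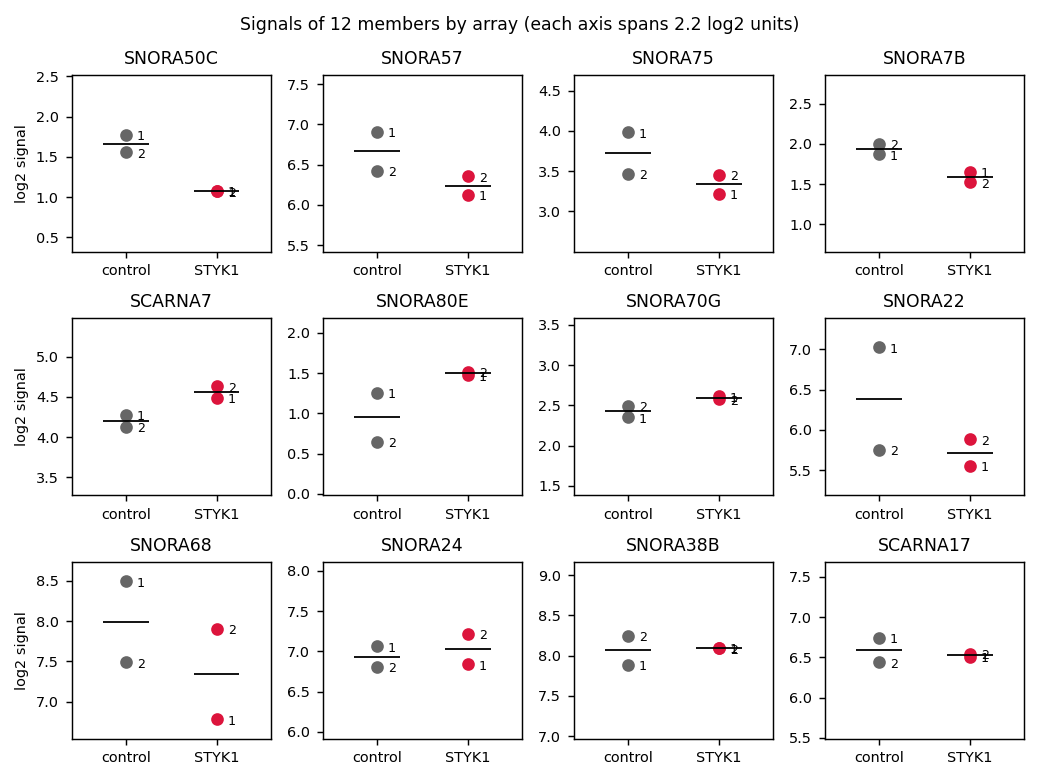
Log2 signals of 12 members on the 2 control arrays (grey) and the 2 STYK1 arrays (red), numbered by replicate, with black lines at the group means; every axis spans the same distance. SNORA50C and SCARNA7 show groups that do not overlap, whereas for SNORA68 the arrays of 1 group lie further apart than the group means.

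The members with the brightest signals differed more between arrays of 1 group than between the groups. SNORA68, which modifies large-subunit ribosomal RNA, read 8.50 and 7.49 with pcFLAG and 6.78 and 7.91 with pcFLAG-hSTYK1. Control replicate 1 was highest and STYK1 replicate 1 lowest, and the means were 7.99 ± 0.71 and 7.35 ± 0.80 (SD, n = 2). The difference was −0.65 (standard error 0.50; limma, adjusted p = 0.979). For SNORA68 it was −0.084 without STYK1 replicate 1 and −0.14 without control replicate 1, and −1.21 and −1.15 without the second array of each of these groups. SNORA22, with the same kind of target, read 7.02 and 5.75 with pcFLAG and 5.55 and 5.88 with pcFLAG-hSTYK1. Here control replicate 1 stood more than 1 log2 unit above the other 3 arrays. Without control replicate 1 the difference of SNORA22 was −0.04, beside −0.67 with all arrays.

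SNORA47 read 7.77 and 7.57 with pcFLAG and 7.10 and 7.80 with pcFLAG-hSTYK1, so only STYK1 replicate 1 was low. SNORA24, whose host is SNHG8 and which modifies small-subunit ribosomal RNA, read 7.06 and 6.81 with pcFLAG and 6.84 and 7.22 with pcFLAG-hSTYK1. Its groups overlapped and its difference was 0.09 with a standard error of 0.17. SNHG8 read 5.23 and 5.61 with pcFLAG and 5.73 and 5.37 with pcFLAG-hSTYK1, the reverse order of arrays within each group. SNORA38B, in the nucleolar protein gene NOL11, read 7.89 and 8.25 with pcFLAG and 8.10 and 8.09 with pcFLAG-hSTYK1. The difference was 0.02 with a standard error of 0.14.

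The 3 members of the SNORA71 family modify small-subunit ribosomal RNA. SNHG17 was the host of SNORA71A and SNORA71C by the rule used here, and not of SNORA71D. SNORA71A read 5.93 and 5.35 with pcFLAG and 5.52 and 5.77 with pcFLAG-hSTYK1, and SNORA71D read 6.35 and 5.84 and then 5.58 and 6.27. Both were higher in control replicate 1 and STYK1 replicate 2 than in the other array of their group. SNORA71C read 5.86 and 5.69 with pcFLAG and 5.95 and 5.73 with pcFLAG-hSTYK1, and followed that order in the controls only. Their differences were 0.01, −0.17 and 0.07 for SNORA71A, SNORA71D and SNORA71C. SNHG17 itself differed by 0.20 with a standard error of 0.19.

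Small Cajal body RNAs above the floor numbered 12. The groups did not overlap for 1 of them, SCARNA7, beside 33% of all genes above the floor. Those listed here as mixed guides, with both kinds of domain, are SCARNA5, SCARNA6 and SCARNA10. SCARNA10, also called U85, guides both kinds of modification on the U5 small nuclear RNA and lies in the condensin gene NCAPD2. It read 5.02 and 3.66 with pcFLAG and 3.31 and 4.93 with pcFLAG-hSTYK1. The 2 arrays of each group lay 1.36 and 1.61 log2 units apart, against a group difference of −0.22. SCARNA5, in the autophagy gene ATG16L1, read 3.68 and 2.92 with pcFLAG and 2.00 and 3.25 with pcFLAG-hSTYK1, with STYK1 replicate 1 lowest. SCARNA6, in the same host, read 1.66 and 1.098 and then 0.99 and 1.67, again with control replicate 1 and STYK1 replicate 2 the higher of their groups. ATG16L1 had the reverse order, with 2.37 and 2.43 with pcFLAG and 2.65 and 2.07 with pcFLAG-hSTYK1.

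Those listed here as box C/D guides are SCARNA2, SCARNA7 and SCARNA17, while SCARNA9L, SCARNA21 and SCARNA27 were left without a class. SCARNA17, also called U91 and acting on the U4 small nuclear RNA, read 6.74 and 6.44 with pcFLAG and 6.51 and 6.54 with pcFLAG-hSTYK1, a difference of −0.06 (standard error 0.13). SCARNA2, which methylates the U2 small nuclear RNA and had no containing gene, read 2.60 on both controls and 2.27 and 2.72 on the STYK1 arrays. SCARNA9L read 5.20 and 4.58 with pcFLAG and 5.12 and 5.19 with pcFLAG-hSTYK1, with only control replicate 2 low. SCARNA22, also known as ACA11 and carried by the histone methyltransferase gene NSD2, read 5.61 and 5.54 with pcFLAG and 5.11 and 5.82 with pcFLAG-hSTYK1. Its groups overlapped, the STYK1 arrays enclosing both controls. SCARNA27, SCARNA21 and SCARNA11 differed by 0.15, −0.13 and 0.03.

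A recurring order of the arrays ran across the members and cut across the groups. Of the 53 above the floor, 42 read higher in control replicate 1 than in control replicate 2, and 34 read higher in STYK1 replicate 2 than in STYK1 replicate 1. Both held for 30, or 56.6%, beside 23.7% of all 11314 genes above the floor. The order was not set beforehand but read from these members, so its share among them is a description and not a test. Of the 21 members with a mean over 3, a level chosen after the values were seen, both held for 19, or 90.5%, beside 24.6% of the 4230 genes with a mean over 3. The exceptions were SNORA38B and SNORA71C. Of the 32 members above the floor with a mean of 3 or less both held for 11. Control replicate 1 was the highest array for 28 of the 53 and STYK1 replicate 1 the lowest for 24.

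The widest ranges were those of SNORA23, SNORA37, SNORA68 and SCARNA10. SNORA23, in the importin gene IPO7, read 5.98 and 4.04 with pcFLAG and 3.94 and 5.11 with pcFLAG-hSTYK1, a range of 2.04. IPO7 stayed between 7.33 and 7.48. SNORA37, in the methyl-CpG binding gene MBD2, read 3.10 and 1.28 with pcFLAG and 1.29 and 2.97 with pcFLAG-hSTYK1. Each group held 1 high and 1 low array, and the difference between the groups was −0.06 with a standard error of 0.81. MBD2 stayed between 4.30 and 4.50. SNORA12, in CWF19L1, had the same order, with 4.41 and 3.18 with pcFLAG and 2.71 and 4.25 with pcFLAG-hSTYK1, and SNORA21 in RPL23 read 6.55 and 5.44 and then 5.24 and 6.02. SNORA12 and SNORA21 were added with their values known.

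**Figure D3:**
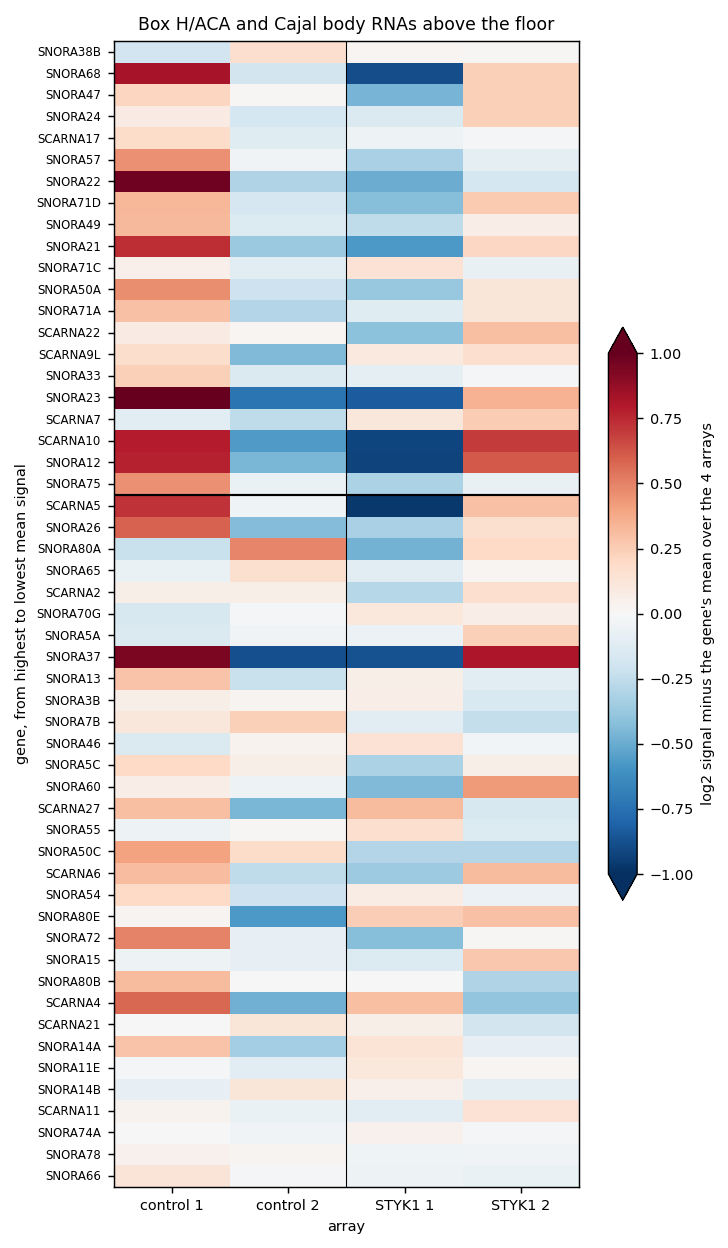
Each row is 1 of the 53 members above the floor, from the highest to the lowest mean, and each cell is the log2 signal of 1 array minus the gene's mean over the 4 arrays, with colours capped at 1 unit; the horizontal line parts the 21 members with a mean over 3. In those rows control replicate 1 and STYK1 replicate 2 are mostly red and control replicate 2 and STYK1 replicate 1 mostly blue.

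Counted per array, the 21 members with a mean over 3 deviated from their own means by a median of 0.32 and −0.17 in control replicates 1 and 2, and by −0.33 and 0.17 in STYK1 replicates 1 and 2. Over all genes with a mean over 3 the same medians lay between −0.008 and 0.015. Box C/D small nucleolar RNAs (SNORD) with a mean over 3 had 0.18, −0.05, −0.22 and 0.09 in the same order of arrays, with both orders held by 19 of 36. The part of these arrays in the differences between the groups was not tested beyond leaving out each array in turn. By length, the median of control replicate 1 minus control replicate 2 was 0.16 over the 70 members under 200 nucleotides and 0.25 over the 10 longer ones. For STYK1 replicate 2 minus STYK1 replicate 1 the medians were 0.048 and 0.10. Both classes include members under the floor.

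The host genes did not hold that order to the same count. Of the 53 members above the floor 34 had a host with a probe set of its own name, in 30 genes; RPL23, for example, was not analysed here because its probe set names several genes. Among these 34, both orders held for 21 members and for 8 of their hosts, with a host that holds a pair counted for each. The median range over the 4 arrays was 0.59 for the 53 members and 0.28 for the 30 hosts, all above the floor. The median difference between STYK1 and control was 0.06 over the hosts and −0.09 over the 53 members. Over the hosts it was 0.012 without control replicate 2 and 0.033 after quantile normalization. Member and host differed in the same direction in 18 of 34 pairs, and the correlation of their differences across pairs was 0.11, a description only, since pairs share arrays and some share a host. With the longest containing gene as the host it was 0.35 over 39 pairs, so it depends on how the host was chosen. Of the 30 hosts, 0 passed the adjusted threshold and 2 had an unadjusted p under 0.05, beside 5.44% of all genes above the floor. These were RPL12 (difference 0.51, host of SNORA65, which differed by −0.09) and RPL32P3, which was above the floor on the control arrays only.

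**Figure D4:**
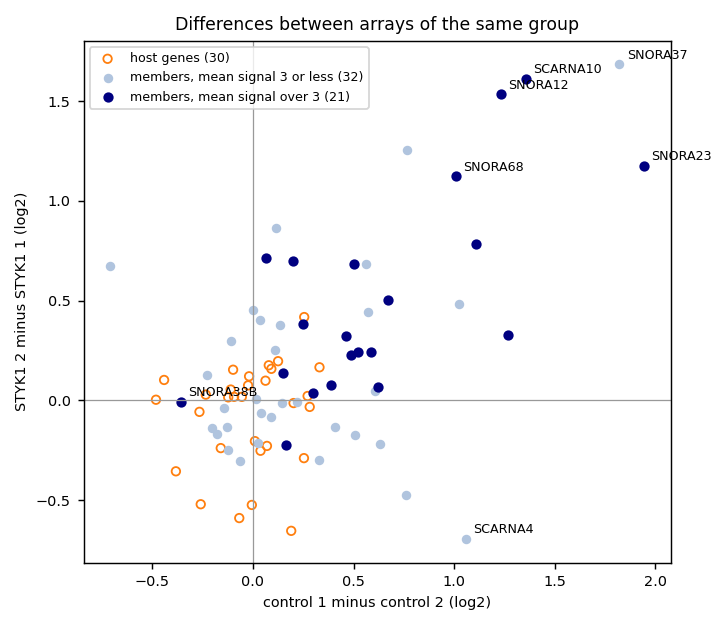
Control replicate 1 minus control replicate 2 (horizontal, log2) against STYK1 replicate 2 minus STYK1 replicate 1 (vertical, log2) for 21 members with a mean over 3 (dark), 32 members above the floor with a mean of 3 or less (light) and 30 host genes (open circles). Of the dark points 19 lie in the upper right of the plot, and the hosts spread around 0.

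Members in 1 host did not always move alike. CNOT1, a scaffold of the deadenylase complex, holds SNORA46 and SNORA50A. SNORA50A read 6.25 and 5.58 with pcFLAG and 5.40 and 5.90 with pcFLAG-hSTYK1, and SNORA46 read 1.52 and 1.70 and then 1.81 and 1.65, the reverse within each group. TBRG4 holds SNORA5A and SNORA5C, which differed by 0.18 and −0.25 between STYK1 and control. Both pairs were picked after their values were seen, and none of the 4 members passed.

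Other genes of the pathway, measured as RNA, showed no call either. Of 41 listed genes for H/ACA particles, Cajal bodies, telomerase and the pseudouridine synthases that act without a guide, 39 were measured. limma called none of them (0 higher, 0 lower), and 1 had an unadjusted p under 0.05, beside 3.71% of genes with 1 symbol and 5.44% of those above the floor. That gene was NOP10, the smallest core protein of the particle, which read 6.05 and 5.99 with pcFLAG and 5.62 and 5.77 with pcFLAG-hSTYK1. Both STYK1 values lay below both controls, a difference of −0.32 (standard error 0.0988; limma, adjusted p = 0.979). The core proteins NHP2 and GAR1 differed by 0.06 and 0.12 and overlapped between the groups, and DKC1 was not analysed here. Assembly and maturation genes had a median difference of 0.12 over 9 genes, from −0.18 for RUVBL1 to 0.26 for the debranching enzyme DBR1, which opens the intron lariats that hold most members.

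Cajal body and SMN complex genes had a median difference of 0.02 over the 13 measured of 14 listed genes. COIL, the scaffold coilin, differed by 0.02 and WRAP53, which brings H/ACA RNAs to Cajal bodies, by 0.04. TERC, the telomerase RNA, is itself an H/ACA RNA under another name and read 4.54 and 4.32 with pcFLAG and 4.08 and 4.29 with pcFLAG-hSTYK1. Its groups did not overlap, with a difference of −0.25 (standard error 0.13; limma, adjusted p = 0.979), and within the groups it had the order seen in most bright members. TERT differed by 0.05. The 12 stand-alone pseudouridine synthases had a median of −0.07, with 3 differences above 0.

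Different probe sets of a gene could disagree. SNORA21 had a second probe set that read 1.28 and 1.39 with pcFLAG and 1.54 and 1.59 with pcFLAG-hSTYK1, without the order of the first. SNORA72 in RPL30 read 1.65 and 1.08 and then 0.74 and 1.18 on the probe set used, and its other probe set lay under the floor on all 4 arrays. Of the 5 members with several probe sets, SNORA11E, SNORA15 and SNORA38 included probe sets with identical values on every array.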

How the data were processed

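RNA was extracted with an RNeasy kit, amplified, turned into single-stranded cDNA, fragmented and biotin-labelled for hybridisation to Affymetrix arrays (labels' protocols). What the authors deposited is a single table of log2 signals, the base inferred from the value range, for 53617 probe sets on 4 arrays. Per the submitters' processing notes the software was Transcriptome Analysis Console. Its version, summarization and normalization: not given in the sources used here. Array medians were 0.615 to 0.629, and no further normalization was applied. The table holds no scan dates or detection calls, so no batch could be read.

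Symbols came from the platform annotation: 23871 probe sets had 1 symbol, 1842 several and 27904 none; 47 that name a SNORA or SCARNA gene among several were left out. RefSeq tables of GRCh38.p14 gave lengths, hosts (by containment; the planned same-strand condition could not be applied) and promoter sequences; the genome build of the arrays is not given. Member RNA sequences are not printed because the tables used hold none.

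Groups came from the titles. limma 3.58.1 in R 4.3.3 (lmFit, eBayes without a trend, two-sided) was fitted over all probe sets with Benjamini-Hochberg adjustment at 0.05; it was tested on simulated data. An exact permutation test of 2 against 2 arrays cannot reach 0.05 and was not run. Members and lists were chosen with earlier results of these data known. Named members are up to 8 per direction whose groups do not overlap and with a group above the floor on both arrays, by smallest p, the 8 brightest, the 4 of widest range and every SCARNA gene above the floor, with hosts and core proteins; others are said to be picked afterwards.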

Additional observations from a re-analysis of the deposited data

How the results depend on the processing

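In 10 alternative fits no member and no listed pathway gene passed the adjusted threshold (0 in each), and the lowest adjusted p of the 29 named members was 0.846. The STYK1 difference was 6.96 to 7.42 when 1 array was left out, each time without a call, since 3 arrays leave 1 residual degree of freedom. With the replicate number as a block it was 7.19 (adjusted p = 0.0637); the block changed no other call. Arrays of the same number had deviations with a correlation of −0.044 across the whole table and of −0.53 over the 53 members above the floor, where the recurring order of arrays runs across the numbers; the labels do not say that a number marks a shared culture or day. Members at an unadjusted p under 0.05 were 5 to 9 without 1 array, 3 among probe sets above the floor, which leaves out SCARNA15 and SNORA77, and 5 in the other fits. The median difference over the members ran from −0.14 to 0.042 without 1 array; it was above 0 only without control replicate 1. Members above the floor were 45 to 60 over other percentiles and 51 to 57 without 1 array. The share with the recurring order of arrays was 54.7% to 62.2% under the scalings, probe set means and the 99th percentile, 75.9% above a mean of 2, 90.5% above 3 and 39.5% over all 81 members; these were added after seeing the data.

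Of 289 differences of named members under alternatives, 24 changed sign, each in a fit without 1 array: over those fits differences ran, for SCARNA10 from −1.02 to 0.59, for SCARNA11 from −0.10 to 0.16, for SCARNA17 from −0.21 to 0.088, for SCARNA2 from −0.34 to 0.11, for SCARNA22 from −0.47 to 0.25, for SCARNA27 from −0.22 to 0.53, for SCARNA4 from −0.62 to 0.44, for SCARNA6 from −0.39 to 0.29, for SCARNA9L from −0.044 to 0.58, for SNORA23 from −1.45 to 0.49, for SNORA24 from −0.10 to 0.28, for SNORA37 from −0.97 to 0.85, for SNORA38B from −0.15 to 0.20, for SNORA47 from −0.57 to 0.12 and for SNORA71D from −0.51 to 0.17. None of these members passed the test in any fit.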
